A study of Mus musculus with 12 samples.

Results

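The molecular motors that move cargo along microtubules were followed across cultures labelled as motoneurons of a mouse model of spinal muscular atrophy (SMA). The members are every gene entry whose symbol begins with Kif followed by a digit or c, Klc followed by a digit, Dync, Dynl or Dctn, with 4 pseudogenes set aside. This gives 67 genes of the 39174 gene identifiers in the files, which are 41 kinesins, 4 kinesin light chains, 16 dynein subunits and 6 dynactin subunits. Of these, 61 reached 1 FPKM in at least 3 of 12 libraries and were tested, among 14982 genes tested in all. FPKM counts fragments per kilobase of transcript and corrects for sequencing depth, so that levels can be compared between genes of different length. The members below that level were Kif2b, Kif12, Kif17, Kif19a, Kif26a and Klc3.

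The labels call the cultures primary motoneurons of FVB mice, though most motoneuron markers were near 0 in them, and every library carries the human SMN2 transgene. The control genotype is Smn+/+;SMN2 and the SMA genotype is Smn-/-;SMN2, in which the mouse Smn gene is knocked out. Cultures of each genotype were left untreated or given 0.5 µM R-Roscovitine, a purine inhibitor of cyclin-dependent kinases, with 3 libraries in each of the 4 groups. The labels do not say whether the 3 libraries of a group came from separate embryos or cultures, so the p-values measure the spread between these libraries, which may be technical.

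Kinesins are motor proteins that walk along microtubules, most of them towards the growing plus end, and cytoplasmic dynein walks the other way. In a neuron, kinesin-1 (the Kif5 heavy chains with Klc light chains), kinesin-2 (Kif3) and kinesin-3 (Kif1 and Kif13) carry vesicles, mitochondria and RNA granules out along the axon, and dynein with its partner complex dynactin brings cargo back to the cell body. A separate set of kinesins builds and moves the mitotic spindle and is made by dividing cells, and a further set serves cilia and centrioles. Motoneurons depend on these motors because their axons are very long, and dominant changes in KIF5A, DYNC1H1 and DCTN1 cause motor neuron or spastic disease in people.

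Smn1 checked the genotype labels: it lay between 30.9 and 51.2 FPKM in the 6 control libraries and between 5.04 and 8.58 FPKM in the 6 SMA libraries. Whether the reads left in SMA libraries come from the SMN2 transgene or from remaining mouse exons was not tested. Most markers that define motoneurons were close to absent. Chat and Mnx1 did not exceed 0.0605 FPKM in any library, and of the 9 motoneuron markers matched, 6 were under 1 FPKM in each library. The 9 summed to 11.8 to 23.1 FPKM in untreated control and 6.92 to 9.30 FPKM in untreated SMA libraries. With R-Roscovitine these sums were 10.4 to 22.5 FPKM in control and 6.62 to 9.97 FPKM in SMA libraries. Neuron markers such as Tubb3 (92.7 to 204 FPKM) and dividing-cell markers such as Mki67 (54.0 to 85.8 FPKM) were both present, so both axonal and mitotic motors are read here from mixed cultures. In such bulk RNA, fewer cells of a type and less RNA per cell cannot be told apart. Control library 1 stood apart with and without the compound: its 12 neuron markers summed to 1350.2 and 1447 FPKM, against 920.2 to 1073 FPKM in the other 4 control libraries.

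Mitotic and axonal motors were both well expressed. The 14 mitotic kinesins summed to 159, 171 and 214 FPKM in the untreated control libraries 1 to 3, and to 184, 214 and 189.6 FPKM in the untreated SMA libraries. With R-Roscovitine the sums were 139, 174 and 178 FPKM in control libraries and 150.3, 180.3 and 182 FPKM in SMA libraries. These ranges overlapped between genotypes, and the treated libraries lay lower than their untreated partners of the same genotype and number except for control library 2. The 15 axonal and neuronal transport kinesins summed to 447, 340.1 and 365 FPKM in untreated control libraries and to 324, 308 and 318 FPKM in untreated SMA libraries. With the compound they summed to 449, 344 and 350.3 FPKM in control libraries and to 358, 349.6 and 331 FPKM in SMA libraries. Every untreated SMA library lay below every untreated control library, whereas the treated groups overlapped. Untreated control library 1 held the highest transport sum and the lowest mitotic sum of its group.

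**Figure D1:**
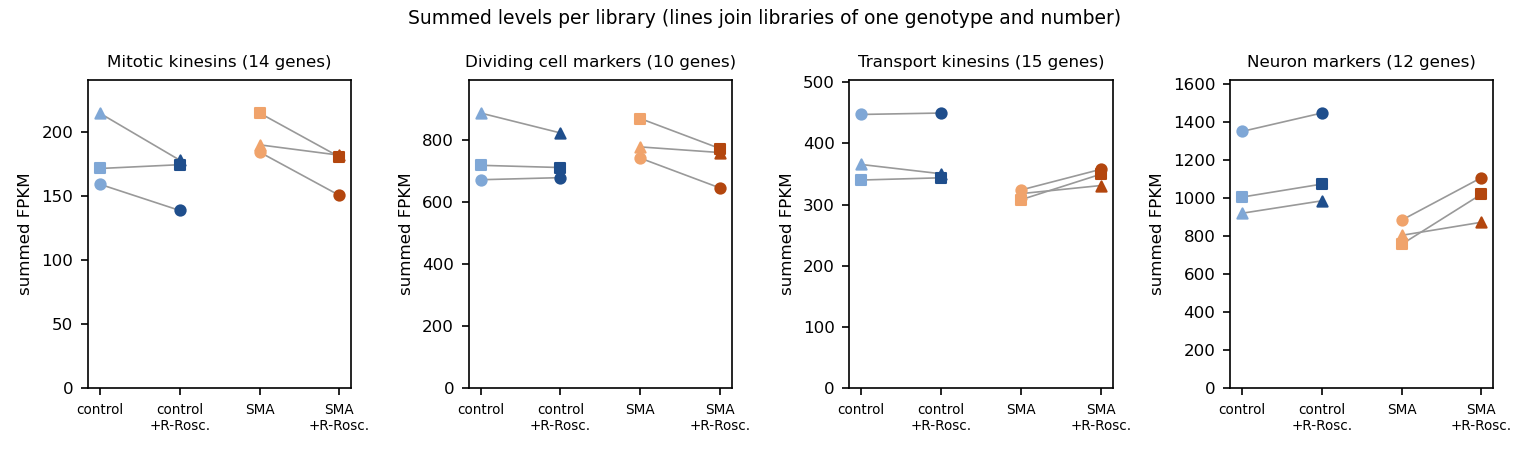
Summed FPKM (y axis) of the 14 mitotic kinesins, 10 dividing-cell markers, 15 transport kinesins and 12 neuron markers in the 4 groups (x axis), 1 point per library (circle, square and triangle for libraries 1, 2 and 3) with lines joining treated and untreated libraries of the same genotype and number. The mitotic sums run from 139 to 214 FPKM and the transport sums from 308 to 449 FPKM, and control library 1 (circles) is the highest control library for the transport kinesins and the neuron markers.

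Levels within each class differed far more than they did between groups. Among the mitotic kinesins, Kif23, which bundles microtubules at the midzone of the dividing cell, had the highest median over the 12 libraries (43.1 FPKM, 33.6 to 52.1) and Kif2b was at or near 0 (0 to 0.0318 FPKM). Among the transport kinesins the highest median belonged to Kif1b, a carrier of mitochondria and synaptic vesicle precursors (74.6 FPKM, 61.3 to 81.1). Kif1a, the carrier of synaptic and dense-core vesicles, had a median of 60.0 FPKM and the kinesin-1 heavy chain Kif5c one of 59.8 FPKM, and their ranges overlapped widely. The neuronal chains Kif5a and Kif5c and the ubiquitous chain Kif5b together summed to 91.5 to 166 FPKM, of which Kif5c made up 46.8% to 60.0%, Kif5b 22.3% to 38.4% and Kif5a 14.8% to 20.4% per library. Dynll1, a light chain shared by dynein and many other complexes, had the highest level of any member with a median of 739 FPKM.

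Mitotic genes are known to be switched on together late in the cell cycle through a promoter element called the cell cycle genes homology region (CHR, TTTGAA) that often stands near CCAAT boxes, so the promoters of the mitotic and axonal kinesins were compared. The set of RefSeq promoters used here (build GRCm38.p6) held a window for 51 of the 67 members, 13 of them mitotic. Each window holds 250 bases before and 50 after the first start listed for the gene. That start can lie inside the gene, as for Dctn1. TTTGAA stood on either strand in 11 of 13 mitotic promoters (84.6%), in 0 of 10 transport kinesin promoters and in 3 of 38 motor promoters outside the mitotic class, the 10 transport ones included (7.89%), against 18.1% of 27025 promoters. CCAAT stood in 9 of 13 mitotic promoters (69.2%) and 3 of 10 transport promoters (30.0%), against 37.9% of all. It stood in 16 of 38 motor promoters outside the mitotic class (42.1%), and the classes differed. Dynactin subunits had it in 3 of 4, ciliary and centriolar kinesins in 3 of 5 and dynein 1 subunits in 0 of 4. The mitotic members without TTTGAA were Kif2b, which was hardly expressed, and Kif18a. The windows of the gene copies Kifc1 and Kifc5b share most of their sequence. Both carry TTTGAA and CCAAT and were counted separately, though they are not independent cases. Searched in the same way, TTCGAA stood in 0 of 13 mitotic promoters against 1.57% of all, TTTGGCGC or TTTCCCGC in 2 against 1.63%, GTTGCC in 2 against 12.7%, and GGCGG in 10 against 49.0%, with GGCGG in 10 of 10 transport promoters. The motifs were chosen with results of these data known, and a match describes letters in a window, not a bound site.

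The next windows are chosen examples of the contrast. They are the promoters of Kif11 (chr19:37376132-37376431, plus strand), the plus-end motor that pushes spindle poles apart, Kif23 (chr9:61946750-61947049, minus strand), Kif22 (chr7:127042371-127042670, minus strand), a motor on chromosome arms, and Kif4 (chrX:100625815-100626114, plus strand), a chromosome and midzone motor, followed by 2 neuronal motors, Kif5c (chr2:49619036-49619335, plus strand) and Kif1a (chr1:93101825-93102124, minus strand). Each is printed 5′ to 3′ on the gene's strand with TTTGAA or its complement TTCAAA, and CCAAT or its complement ATTGG, in capitals.
Kif11: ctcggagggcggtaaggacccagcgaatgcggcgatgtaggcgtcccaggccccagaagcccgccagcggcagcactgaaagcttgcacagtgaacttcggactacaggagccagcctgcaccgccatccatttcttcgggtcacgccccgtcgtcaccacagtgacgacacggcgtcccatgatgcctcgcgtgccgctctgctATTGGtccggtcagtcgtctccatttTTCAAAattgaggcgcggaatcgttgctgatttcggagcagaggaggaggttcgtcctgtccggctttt
Kif23: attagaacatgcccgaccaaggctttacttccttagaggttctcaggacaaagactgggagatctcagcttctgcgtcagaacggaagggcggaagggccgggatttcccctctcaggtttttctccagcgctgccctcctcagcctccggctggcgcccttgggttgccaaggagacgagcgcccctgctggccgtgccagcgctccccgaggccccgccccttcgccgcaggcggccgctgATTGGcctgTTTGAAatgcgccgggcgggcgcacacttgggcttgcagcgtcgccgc
Kif22: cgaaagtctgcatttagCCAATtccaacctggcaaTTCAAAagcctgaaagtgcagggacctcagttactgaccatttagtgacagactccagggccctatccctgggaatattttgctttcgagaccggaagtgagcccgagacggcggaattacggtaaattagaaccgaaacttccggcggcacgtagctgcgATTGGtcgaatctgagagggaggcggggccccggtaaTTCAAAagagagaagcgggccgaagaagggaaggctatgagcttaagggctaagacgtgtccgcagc
Kif4: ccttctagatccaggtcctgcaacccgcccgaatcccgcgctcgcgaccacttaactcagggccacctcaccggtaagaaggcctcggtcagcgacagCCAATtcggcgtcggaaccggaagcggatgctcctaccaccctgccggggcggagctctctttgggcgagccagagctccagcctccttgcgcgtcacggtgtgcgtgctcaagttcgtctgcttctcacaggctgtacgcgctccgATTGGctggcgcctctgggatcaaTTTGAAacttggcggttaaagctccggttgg
Kif5c: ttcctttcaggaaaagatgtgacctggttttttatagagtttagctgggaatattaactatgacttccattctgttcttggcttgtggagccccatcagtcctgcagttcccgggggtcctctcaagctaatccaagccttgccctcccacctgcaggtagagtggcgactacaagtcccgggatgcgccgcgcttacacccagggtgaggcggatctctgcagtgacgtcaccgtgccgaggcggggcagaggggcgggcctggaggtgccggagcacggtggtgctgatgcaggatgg
Kif1a: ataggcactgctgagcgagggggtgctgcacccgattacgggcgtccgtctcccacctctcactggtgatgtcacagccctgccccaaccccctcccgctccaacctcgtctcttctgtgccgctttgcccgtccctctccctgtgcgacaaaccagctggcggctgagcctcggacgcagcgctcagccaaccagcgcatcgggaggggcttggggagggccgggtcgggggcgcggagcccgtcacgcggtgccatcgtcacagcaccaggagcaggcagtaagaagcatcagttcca
The 4 mitotic windows carry both elements, Kif22 with 2 copies of each and Kif4 with 2 of CCAAT, and no match of one motif overlaps another. The windows of Kif5c and Kif1a carry neither. Windows not printed were less clear. Those of the mitotic Kif15, Kif20b and Kif2c lack CCAAT, that of Kif18a lacks both, and the transport kinesins Kif1b, Kif3a and Kif3b carry CCAAT.

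The genotype comparison asks which motors differ between SMA and control cultures. Averaged over both treatments, 3 of 61 motor genes passed limma's test at an adjusted p under 0.05 (4.92%), against 4.83% of all tested genes (724 of 14982), with 1 member higher (3.03% of all genes) and 2 lower (1.8% of all genes). The 724 genes became 64 (0.427%) with treated and untreated partners kept as a random block and 1 (0.00667%) with 1 mean per pair, and 0 motor genes were called in either. Without 1 library the count over all genes ran from 6 (without untreated SMA library 3 or treated SMA library 1) to 1362 (without treated SMA library 2), with 36 without treated SMA library 3, 54 and 412 without treated control library 1 or 2, 111 without untreated control library 2 and 153 without untreated SMA library 1. Of the 724, 454 were higher and 270 lower in SMA, against 332 and 498 with libraries scaled to a common sum. The ciliary kinesin Kif6 rose, and the dynactin subunit Dctn3 and the dynein subunit Dync1li1 fell. Of the 61, 32 had a positive difference (48.3% of all genes) and 29 a negative one, and their median difference was 0.00 on the log2 scale against -0.01 for all genes. At an unadjusted p under 0.05 there were 7 higher and 10 lower members (11.9% and 11.3% of all genes), 27.9% of the 61 against 23.3% of all genes. The separate comparisons within untreated and within treated cultures called 0 members each, where 0.00667% of all genes (1 gene) was called in each. Untreated cultures had 14 members at an unadjusted p under 0.05 (23.0% of the 61, against 14.1% of all genes). Treated cultures had 2 (3.28% of the 61, against 12.9% of all genes).

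Measures of the libraries also differed with genotype. The gene entry Gm26924, which collects ribosomal RNA reads, took 2.83% to 3.81% of the summed FPKM in untreated control and 4.52% to 4.85% in untreated SMA libraries, and 2.62% to 3.39% against 3.57% to 5.05% with the compound, without overlap in either treatment. Estimated depth, in units of 1e6 fragments, was 27.1 to 28.7 in untreated control and 21.2 to 25.2 in untreated SMA libraries, and 23.3 to 27.4 against 19.5 to 23.5 with the compound. Their part in the motor gene differences was not tested.

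**Figure D2:**
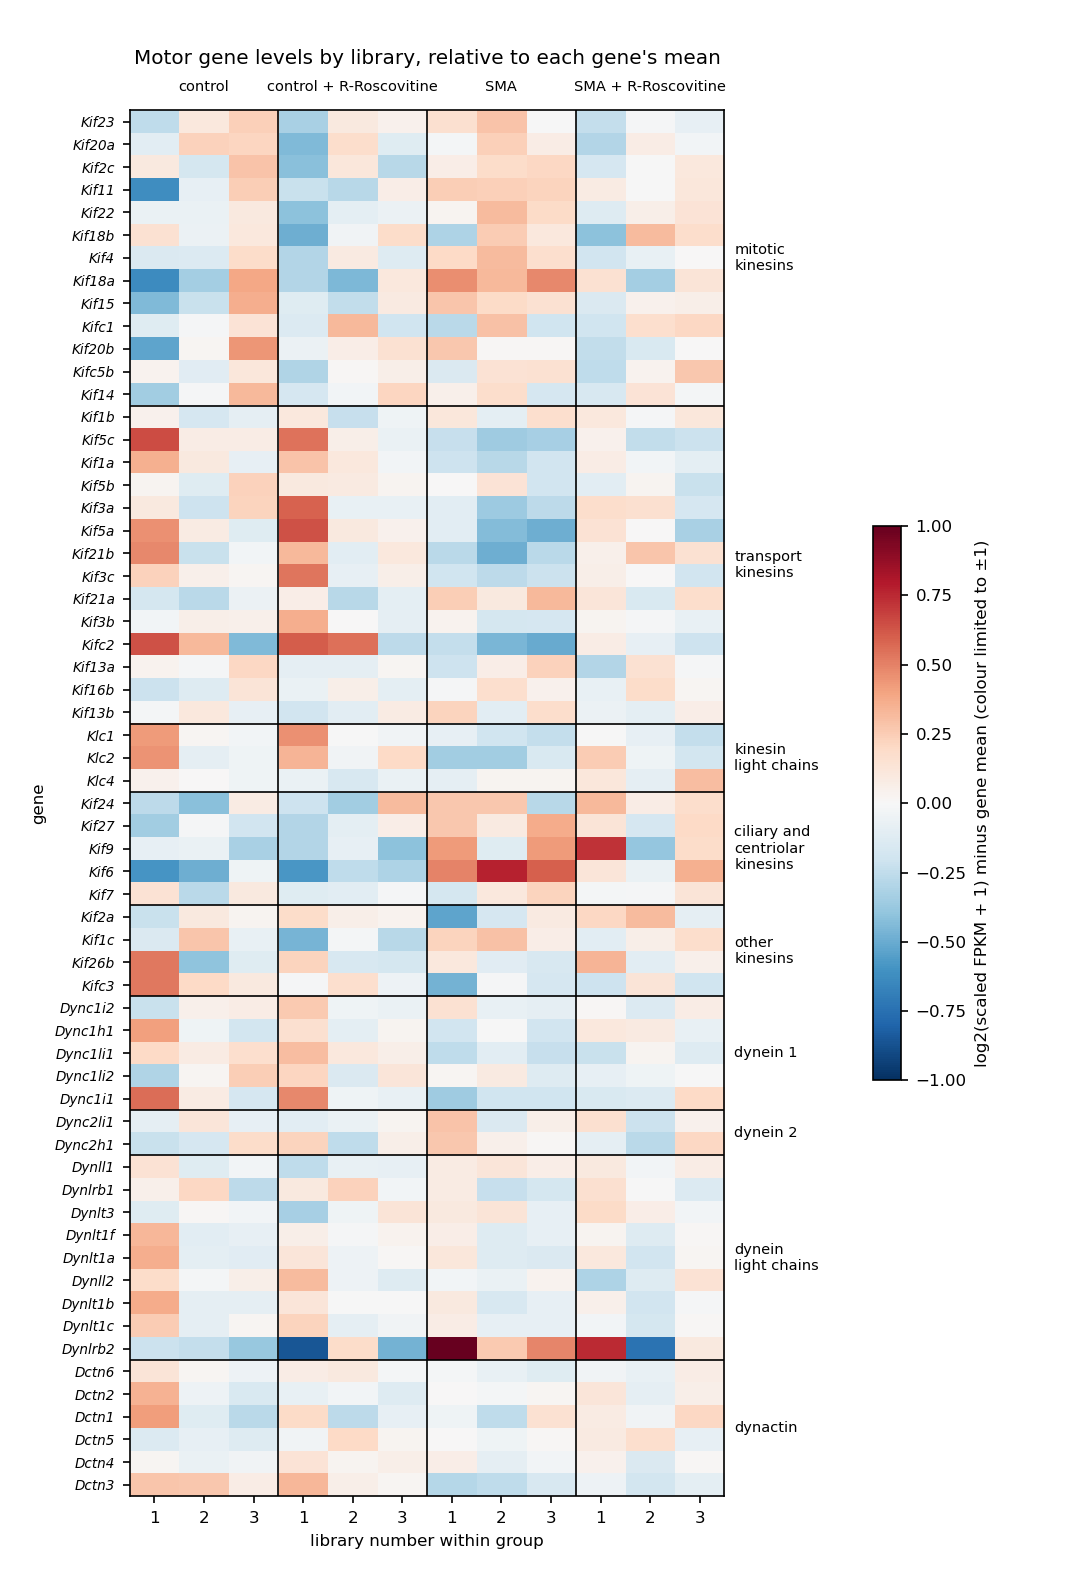
Heat map of the 61 tested motor genes (rows, grouped by class) in the 12 libraries (columns, grouped by genotype and treatment), coloured by log2(scaled FPKM + 1) minus the mean of that gene, with the colour limited to 1 either way. Control library 1 is high for many transport kinesins in both treatments, and Kif6 is high in the untreated SMA libraries.

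Kif6, a kinesin of motile cilia, was the member with the largest called difference on the log2(scaled FPKM + 1) scale. It stood at 0.603, 0.693 and 1.35 FPKM in untreated control libraries 1 to 3 and at 2.29, 3.09 and 2.57 FPKM in untreated SMA libraries. With R-Roscovitine it stood at 0.591, 0.977 and 0.937 FPKM in control libraries, against 1.55, 1.29 and 2.04 FPKM in SMA libraries. All SMA libraries lay above the control libraries of the same treatment. The difference was 0.76 ± 0.13 (SE) on the log2(scaled FPKM + 1) scale, 1.69-fold on that scale, with an adjusted p of 0.0170 (limma). Its size depended on the settings. Over the alternatives that kept all libraries it ran from 0.29 to 1.25, and the Dctn3 difference from -0.42 to -0.30. Kif6 was thus not the larger in every setting. Taken alone, the difference was 0.99 ± 0.19 in untreated cultures (adjusted p = 0.217) and 0.52 ± 0.19 in treated cultures (adjusted p = 0.268). The values are low, and the median half-width of the deposited 95% interval was 46.6% of the Kif6 level. Among the control libraries only untreated library 3 reached 1 FPKM. Kif6 was therefore tested only through the SMA libraries, where it was high. With treated and untreated partners kept as a random block the adjusted p was 0.0525, and with 1 mean per pair 0.163. Leaving out SMA untreated library 3, control treated library 1, or SMA treated library 1 or 3 gave adjusted p of 0.0617, 0.0536, 0.0523 and 0.0540, with differences of 0.70 to 0.76. The gene lies at chr17:49615136-49909847 (GRCm38, plus strand).

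The other tested ciliary and centriolar kinesins all had positive differences between SMA and control, and none of them passed. Kif9, which works in the axoneme of motile cilia, stood at 1.42, 1.38 and 1.02 FPKM in untreated control and 2.30, 1.32 and 2.33 FPKM in untreated SMA libraries. In treated cultures it was at 1.04, 1.34 and 0.897 FPKM in control libraries, against 3.03, 0.920 and 1.83 FPKM in SMA libraries. SMA library 2 lay within the control range in both treatments. Averaged over treatments, Kif9 differed by 0.42 ± 0.18 (adjusted p = 0.174), and 0.56 (adjusted p = 0.0392) without treated SMA library 2. Its adjusted p ran from 0.0392 to 0.344 without 1 library and from 0.0191 to 0.488 without 1 pair. Kif27, a relative of the hedgehog pathway kinesin Kif7, showed 0.30 ± 0.12 (adjusted p = 0.154), with untreated values of 1.20, 1.69 and 1.43 FPKM in control libraries, against 2.23, 1.93 and 2.50 FPKM in SMA libraries, which did not overlap. Kif24, which trims centriolar microtubules, and Kif7 had differences of 0.28 ± 0.15 (adjusted p = 0.285) and 0.09 ± 0.12 (adjusted p = 0.716). The sign was positive for 5 of 5 genes of this class under every scaling tried and without any pair of libraries.

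Dynlrb2, a roadblock-type dynein light chain, also had separate groups in untreated cultures, without passing the test. It stood at 1.90, 1.76 and 1.56 FPKM in untreated control libraries and at 5.91, 2.95 and 3.54 FPKM in untreated SMA libraries, with no overlap. With the compound it ranged from 0.809 to 2.66 FPKM in control and from 0.962 to 4.37 FPKM in SMA libraries, which overlapped. Averaged over treatments, Dynlrb2 differed by 0.66 ± 0.24 (adjusted p = 0.132), and 0.85 (adjusted p = 0.0275) without treated SMA library 2. Leaving out each library in turn gave adjusted p of 0.0275 to 0.263 for Dynlrb2, and each pair 0.0228 to 0.416. Its widely expressed relative Dynlrb1 ranged from 269 to 362 FPKM with a difference of -0.10 ± 0.10 (adjusted p = 0.576).

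**Figure D3:**
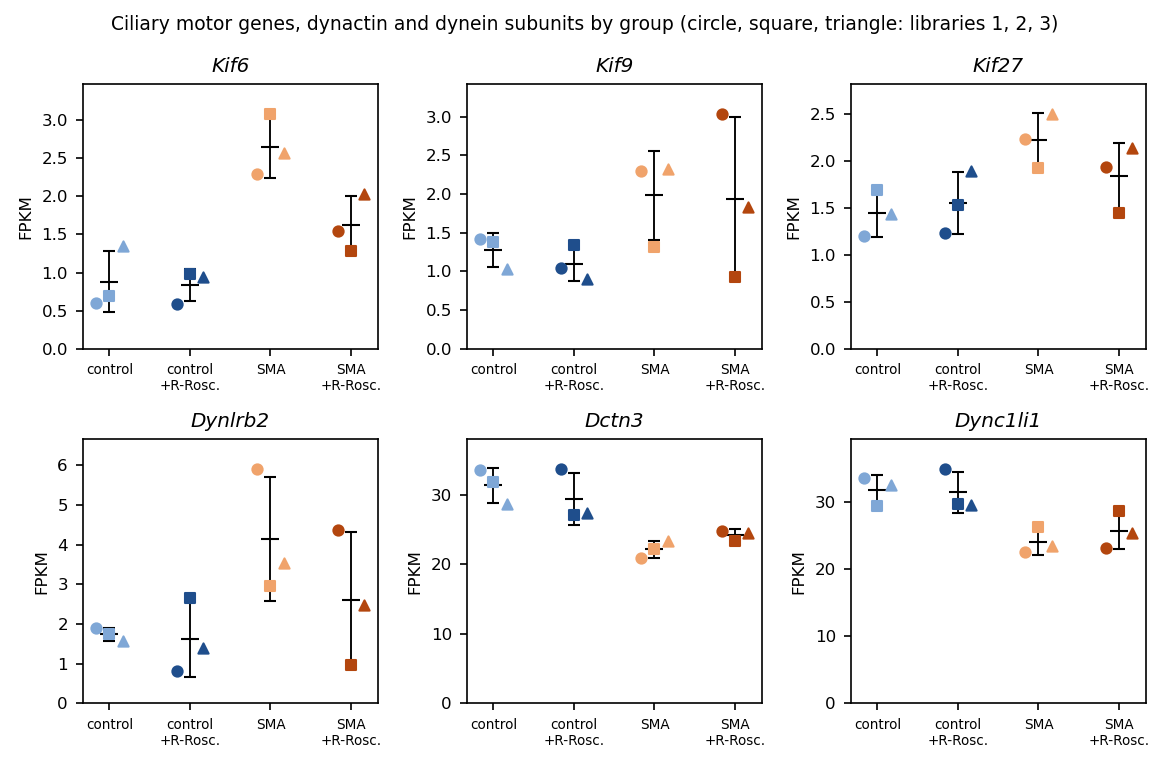
FPKM (y axis) of Kif6, Kif9, Kif27, Dynlrb2, Dctn3 and Dync1li1 in the 4 groups (x axis), 1 point per library with horizontal lines at the mean and bars of 1 SD (n = 3). The Kif6 points of the SMA groups lie above, and those of Dctn3 and Dync1li1 below, the control points of the same treatment.

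Markers of motile cilia differed in the same direction. Of 10 such markers in the files, 6 were tested, and all 6 had positive averaged differences (median 0.54), of which Foxj1 (0.64 ± 0.14, adjusted p = 0.0293), Ccdc40 (0.81 ± 0.18, adjusted p = 0.0318) and Tekt1 (0.60 ± 0.14, adjusted p = 0.0348) rose. Their summed level was 28.9 to 33.0 FPKM in untreated control and 43.4 to 46.2 FPKM in untreated SMA libraries, and 20.8 to 32.8 and 37.1 to 53.4 FPKM in treated ones. The axonemal dynein gene Dnah5 stayed at or below 0.0761 FPKM and Mcidas, a regulator of multiciliated cells, at or below 0.108 FPKM. Astroglia markers moved the same way, with 10 of 11 tested positive and 5 called up, and summed to 171 to 220.2 FPKM in untreated control and 288 to 479 FPKM in untreated SMA libraries. Within SMA, library 2 had the lowest astroglia sum in both treatments (288 and 240.3 FPKM), and it was also low for Kif9 and Dynlrb2. Kif6 and Kif24, in contrast, were highest in that library among untreated SMA cultures (3.09 and 4.87 FPKM) and lowest in it among treated ones (1.29 and 4.10 FPKM). The part of these cell types in the ciliary motor differences was not tested. In the list of intraflagellar transport genes, 13 of 20 were positive and 2 rose, Ift80 (0.61 ± 0.14, adjusted p = 0.0340) and Ift81 (0.34 ± 0.09, adjusted p = 0.0401), and 0 fell. With the pairs as a random block 0 of these cilia and intraflagellar transport genes were called and 2 of the astroglia markers were, Kcnj10 (adjusted p = 0.0267) and Slc1a3 (adjusted p = 0.0478). With 1 mean per pair 0 in the 3 lists were called, with adjusted p of 0.163 for Foxj1, 0.189 for Ccdc40 and Ift80, 0.183 for Tekt1 and 0.191 for Ift81. Dynein 2, the motor that returns intraflagellar trains, had 2 tested subunits, Dync2h1 at 0.06 ± 0.13 (adjusted p = 0.815) and Dync2li1 at 0.07 ± 0.10 (adjusted p = 0.741).

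Dynactin is the complex that couples dynein to cargo and keeps it on the microtubule. Its subunit Dctn3, part of the shoulder that links the side arm to the filament, stood at 33.6, 31.9 and 28.7 FPKM in untreated control and 20.9, 22.2 and 23.3 FPKM in untreated SMA libraries. With R-Roscovitine it stood at 33.8, 27.2 and 27.3 FPKM in control libraries, against 24.8, 23.3 and 24.6 FPKM in SMA libraries. Every SMA library was below every control library. The averaged difference was -0.34 ± 0.08 (0.788-fold on that scale, adjusted p = 0.0386). The adjusted p was 0.114 with the pairs as a random block and 0.209 with 1 mean per pair. It stayed under the threshold without untreated control library 3, treated control library 3 or treated SMA library 2, and ranged from 0.0550 to 0.105 without any 1 of the other 9 libraries (differences of -0.29 to -0.36). The locus is chr4:41714798-41723170 (GRCm38, minus strand).

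The remaining dynactin subunits had smaller differences, and none was called. Dctn1, the p150Glued side arm that binds microtubules, stood at 67.6, 44.0 and 41.2 FPKM in untreated control and 45.6, 40.9 and 53.2 FPKM in untreated SMA libraries, and differed by 0.04 ± 0.13 (adjusted p = 0.887). Its groups overlapped, and its sign turned to -0.04 when all libraries were scaled to a common sum. Dctn2, Dctn4, Dctn5 and Dctn6 had differences between -0.08 and 0.05, with adjusted p of 0.497 to 0.870. In the class as a whole 3 of 6 differences were positive, and 0 of 6 under common-sum scaling.

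Cytoplasmic dynein 1 is the main minus-end motor of the cell. Its light intermediate chain Dync1li1, which holds cargo adaptors, stood at 33.6, 29.5 and 32.5 FPKM in untreated control and 22.6, 26.3 and 23.4 FPKM in untreated SMA libraries. With the compound it stood at 35.0, 29.7 and 29.6 FPKM in control libraries, against 23.2, 28.7 and 25.3 FPKM in SMA libraries. The groups did not overlap in either treatment. The averaged difference was -0.31 ± 0.08 (0.809-fold on that scale, adjusted p = 0.0496), just inside the threshold. It was 0.132 with the pairs as a random block and 0.241 with 1 mean per pair, and only leaving out treated SMA library 2 kept it under 0.05. Without any 1 of the other 11 libraries the adjusted p ran from 0.0569 to 0.130 (differences of -0.27 to -0.33). The locus is chr9:114688790-114724302 (GRCm38, plus strand).

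The other dynein 1 subunits had smaller or more variable differences, all negative and none called. The heavy chain Dync1h1, the motor itself, ranged from 60.2 to 92.5 FPKM in untreated control and 56.7 to 67.1 FPKM in untreated SMA libraries, and differed by -0.09 ± 0.10 (adjusted p = 0.654). Its sign turned to 0.03 without control library 1 of both treatments. Dync1i1, the intermediate chain found mainly in neurons, stood at 6.41, 4.11 and 3.42 FPKM in untreated control and 2.72, 3.27 and 3.20 FPKM in untreated SMA libraries, without overlap, and had an averaged difference of -0.28 ± 0.14 (adjusted p = 0.267). Dync1i2, the widely expressed intermediate chain, was 14.6 to 41.6 times as abundant as Dync1i1 across the libraries and differed by -0.02 ± 0.09 (adjusted p = 0.911). Dync1li2, the second light intermediate chain, differed by -0.05 ± 0.11 (adjusted p = 0.814).

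Among the kinesin-1 genes the neuronal chains Kif5c and Kif5a had negative differences that did not pass the test. Kif5c stood at 99.8, 63.2 and 65.6 FPKM in untreated control and 49.9, 47.6 and 47.3 FPKM in untreated SMA libraries. With R-Roscovitine it stood at 89.2, 62.2 and 58.8 FPKM in control libraries, against 60.9, 51.1 and 51.7 FPKM in SMA libraries. The untreated groups did not overlap, and in the treated cultures SMA library 1 lay within the control range. Kif5c differed by -0.45 ± 0.13 (adjusted p = 0.0640), the lowest p after the 3 called members. Kif5c passed when scaled to a common sum (-0.52, adjusted p = 0.0323), with library weights (-0.32, adjusted p = 0.0434) and with the library number as a block (adjusted p = 0.00760), and did not with the pairs as a random block (adjusted p = 0.123) or 1 mean per pair (adjusted p = 0.258).

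Kif5a, the kinesin-1 chain linked to spastic paraplegia and amyotrophic lateral sclerosis, stood at 29.6, 21.5 and 19.3 FPKM in untreated control and 18.4, 15.0 and 14.1 FPKM in untreated SMA libraries. The averaged difference was -0.40 ± 0.14 (adjusted p = 0.114, and 0.00906 with the library number as a block). With the pairs as a random block the adjusted p was 0.201, and with 1 mean per pair 0.328. In treated cultures the values were 32.6, 21.6 and 21.5 FPKM in control libraries, against 22.1, 20.6 and 16.1 FPKM in SMA libraries. The groups were separate in untreated cultures and overlapped in treated ones through SMA library 1. The ubiquitous chain Kif5b differed by -0.12 ± 0.09 (adjusted p = 0.470), with 31.7 to 42.5 FPKM in untreated control and 30.2 to 39.0 FPKM in untreated SMA libraries.

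The kinesin light chains bind cargo, and none of the 3 tested was called. Klc1, the neuronal light chain, stood at 115.0, 82.4 and 82.8 FPKM in untreated control and 75.3, 72.1 and 68.3 FPKM in untreated SMA libraries, and at 114, 80.6 and 81.3 against 79.2, 77.6 and 68.8 FPKM with the compound. All SMA values lay below all control values, with a difference of -0.28 ± 0.11 (adjusted p = 0.145, and 0.0346 with the number block). For Klc1 the adjusted p was 0.247 with the pairs as a random block and 0.368 with 1 mean per pair. Klc2 differed by -0.27 ± 0.12 (adjusted p = 0.200) and did not overlap in untreated cultures (11.8 to 18.6 against 9.55 to 11.3 FPKM). Klc4 differed by 0.10 ± 0.10 (adjusted p = 0.615), and Klc3 never exceeded 0.438 FPKM.

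Of the 14 tested transport kinesins, 10 had a negative and 4 a positive averaged difference, with a median of -0.15 against -0.01 for all genes. The median was -0.06 without control library 1 of both treatments, and the count of positive differences stayed at 4 under each scaling tried. Kif1a stood at 80.7, 63.9 and 58.7 FPKM in untreated control and 50.7, 50.2 and 52.1 FPKM in untreated SMA libraries, without overlap, and differed by -0.24 ± 0.09 on average (adjusted p = 0.132). Kifc2, a minus-end kinesin of dendrites and axons, had the most negative averaged difference, -0.47 ± 0.19 (adjusted p = 0.155, and 0.0332 with the number block). It did not pass with the pairs as a random block (adjusted p = 0.247) or 1 mean per pair (adjusted p = 0.377). Untreated Kifc2 values were 11.8, 8.80 and 4.96 FPKM in control libraries, against 5.54, 4.80 and 4.51 FPKM in SMA libraries. Without control library 3 of both treatments, whose values of 4.96 and 5.66 FPKM were low among the control libraries, Kifc2 gave -0.76 (adjusted p = 0.0191). Across all omissions its adjusted p ran from 0.0527 to 0.305 without 1 library and from 0.0191 to 0.459 without 1 pair. Kif3c, the neuronal kinesin-2 subunit, differed by -0.27 ± 0.11 (adjusted p = 0.163). Of the 50-base words of its longest transcript, 43.4% are shared with 1110002L01Rik and Gm48512, both on the opposite strand, so the Kif3c value is uncertain. Its partner Kif3a, which also drives transport in cilia, differed by -0.19 ± 0.13 (adjusted p = 0.421).

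The positive transport kinesins were Kif1b, Kif13b, Kif16b and Kif21a. The last, a regulator of microtubule growth, stood at 13.0, 11.5 and 14.0 FPKM in untreated control and 16.7, 15.5 and 17.9 FPKM in untreated SMA libraries, without overlap, and at 15.1, 11.4 and 13.4 against 15.2, 12.8 and 16.1 FPKM with R-Roscovitine. Kif21a differed by 0.27 ± 0.10 (adjusted p = 0.117), and passed with library weights (adjusted p = 0.0278) and the number block (adjusted p = 0.0405). It did not pass with the pairs as a random block (adjusted p = 0.245) or 1 mean per pair (adjusted p = 0.336). Its relative Kif21b was at 25.9, 14.8 and 17.8 FPKM in untreated control and 14.1, 12.4 and 14.2 FPKM in untreated SMA libraries, a difference of -0.42 ± 0.17 in untreated cultures (adjusted p = 0.313) and of -0.18 ± 0.12 on average (adjusted p = 0.399). Kif1b, the transport kinesin of highest median, differed by 0.13 ± 0.08 (adjusted p = 0.399).

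**Figure D4:**
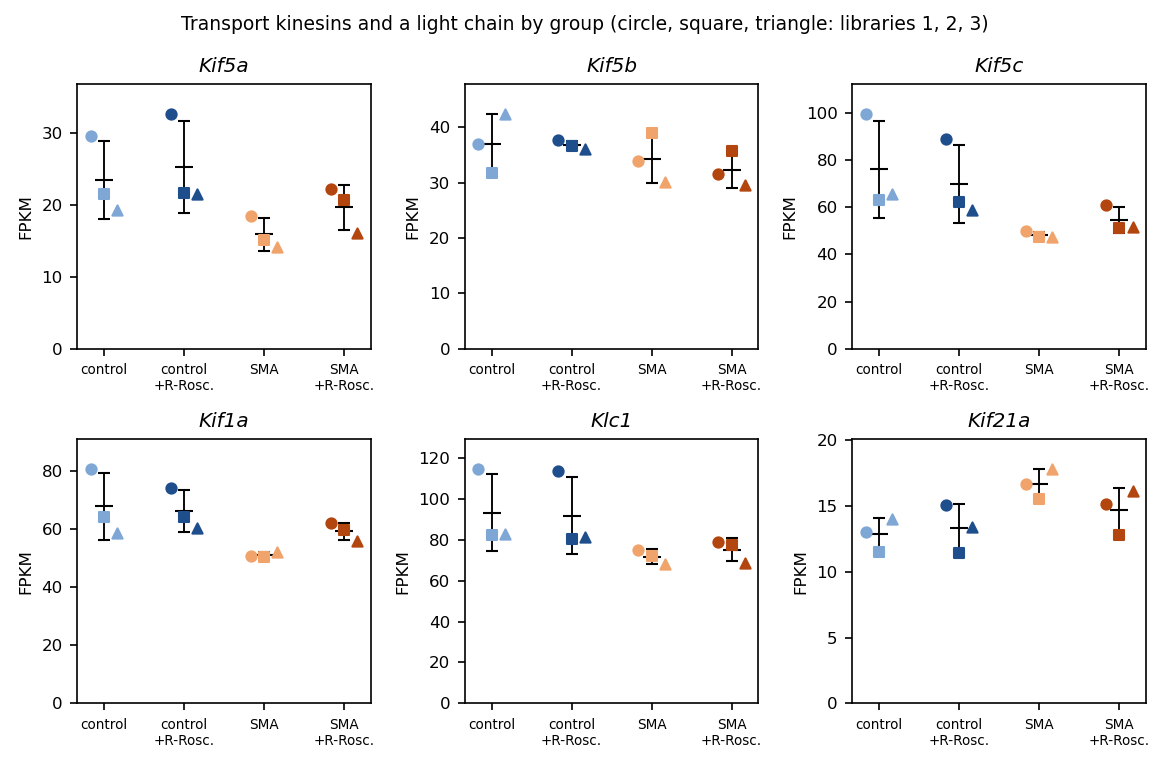
FPKM (y axis) of the kinesin-1 heavy chains Kif5a, Kif5b and Kif5c, of Kif1a, the light chain Klc1 and Kif21a in the 4 groups (x axis), 1 point per library with horizontal lines at the mean and bars of 1 SD (n = 3). Kif5c spans 58.8 to 99.8 FPKM in the control groups and 47.3 to 60.9 FPKM in the SMA groups, and control library 1 is the highest library for Kif5a, Kif5c, Kif1a and Klc1.

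Neuron markers moved with these genes. All 12 neuron markers had negative averaged differences (median -0.37), 2 of them called, and their sum was 920.2 to 1350.2 FPKM in untreated control and 757 to 884 FPKM in untreated SMA libraries. In treated cultures it was 985.5 to 1447 FPKM in control and 873 to 1107 FPKM in SMA libraries, with overlap. The 8 interneuron markers summed to 182 to 305 FPKM in untreated control and 134 to 152 FPKM in untreated SMA libraries. Of 3 tested motoneuron markers, 1 was positive and 2 negative, and Chodl fell (-1.08 ± 0.24, adjusted p = 0.0314). For Chodl the adjusted p was 0.0632 with the pairs as a random block and 0.189 with 1 mean per pair. Neural progenitor markers were positive in 12 of 14, with 9 called higher, where 3.03% of all genes were. Their summed level overlapped between genotypes, at 3404 to 3675 FPKM in untreated control and 3081 to 4049 FPKM in untreated SMA libraries. With the compound it was 2226 to 3520 FPKM in control and 3124 to 4004 FPKM in SMA libraries. The part of neuron content in the transport kinesin differences was not tested. Among 27 tested motor adaptors and regulators, 9 were positive and 18 negative, and 1 fell, Ndel1, a dynein regulator (-0.40 ± 0.10, adjusted p = 0.0405). Its adjusted p was 0.114 with the pairs as a random block and 0.203 with 1 mean per pair. Of the called neuron, interneuron and progenitor markers, the random block left 0, 0 and 2 called, and 1 mean per pair left 0 in each list. Madd, an adaptor for Kif1 kinesins, differed by -0.43 ± 0.14 (adjusted p = 0.0868).

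Mitotic kinesins leaned slightly upwards in SMA cultures, and none passed. In the averaged comparison 12 of 13 tested members were positive with a median of 0.07, but 7 were positive under common-sum scaling, 9 with FPKM as deposited, and 7 without control library 1 or without SMA library 2 of both treatments. Kif18a, which limits chromosome movement at the metaphase plate, stood at 6.46, 7.76 and 14.0 FPKM in untreated control and 14.0, 13.1 and 14.4 FPKM in untreated SMA libraries. Control library 3 lay within the SMA range. The averaged Kif18a difference was 0.41 ± 0.17 (adjusted p = 0.164), and it passed without untreated control library 3 (0.55, adjusted p = 0.0477) and without control library 3 of both treatments (0.63, adjusted p = 0.0301). Other omissions gave adjusted p of up to 0.329 without 1 library and up to 0.469 without 1 pair. Kif11 stood at 10.7, 15.3 and 20.2 FPKM in untreated control and 19.0, 19.6 and 19.0 FPKM in untreated SMA libraries, and differed by 0.30 ± 0.13 (adjusted p = 0.189).

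The most abundant mitotic kinesins overlapped between the genotypes. Kif23 stood at 36.7, 45.0 and 51.3 FPKM in untreated control and 45.8, 52.1 and 41.4 FPKM in untreated SMA libraries. Its averaged difference was 0.03 ± 0.11 (adjusted p = 0.893), and it turned to -0.04 under common-sum scaling. Kif20a, which acts in cytokinesis, differed by 0.02 ± 0.12 (adjusted p = 0.949), with -0.06 under common-sum scaling and -0.01 with FPKM as deposited. The deposited status of Kif20a in treated SMA library 2 was a failed estimate, and 31.2% of its 50-base words are shared with Cdc23 on the other strand. The depolymerising kinesin Kif2c differed by 0.13 ± 0.11 (adjusted p = 0.536), and Kif22 by 0.20 ± 0.10 (adjusted p = 0.232).

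Genes that work with the mitotic kinesins gave a similar picture. Of 20 spindle and cytokinesis partners, 17 were positive and 3 negative (median 0.18), and 0 passed the limma test, with 4 at an unadjusted p under 0.05. The lowest p belonged to Ccnb1, the mitotic cyclin (0.41 ± 0.12, adjusted p = 0.0732), and Bub1b, a spindle checkpoint kinase (0.31 ± 0.10, adjusted p = 0.0889). The 10 dividing-cell markers summed to 671 to 886 FPKM in untreated control and 741 to 868 FPKM in untreated SMA libraries, and 7 of the 10 were positive. Their part in the mitotic kinesin differences was not tested.

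Among the kinesins of other roles, Kifc3, a minus-end motor of cell junctions and the centrosome, differed by -0.31 ± 0.12 on average (adjusted p = 0.145). It did not overlap in untreated cultures, at 7.45, 5.43 and 5.19 FPKM in control libraries, against 2.99, 4.64 and 3.99 FPKM in SMA libraries, and 23.1% of its 50-base words are shared with other genes. Kif1c, a long-range vesicle and RNA carrier, differed by 0.23 ± 0.11 (adjusted p = 0.226). Kif2a, a depolymeriser that prunes axon branches and also works at spindle poles, ranged from 50.4 to 94.3 FPKM and differed by -0.06 ± 0.11 (adjusted p = 0.810). Of the Kif2a words 23.0% are shared with other genes, among them Dimt1 on the other strand. Kif26b differed by 0.04 ± 0.15 (adjusted p = 0.911).

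The dynein light chains include the member of highest level, and none of the 9 was called. Dynll1 stood at 831, 659 and 732 FPKM in untreated control and 746, 794 and 749.97 FPKM in untreated SMA libraries, and differed by 0.14 ± 0.07 on average (adjusted p = 0.273). In treated cultures it was at 609.9, 676 and 695 FPKM in control libraries, against 753, 712 and 759 FPKM in SMA libraries, without overlap. Dynlt3 differed by 0.13 ± 0.09 (adjusted p = 0.434) and Dynll2 by -0.12 ± 0.10 (adjusted p = 0.524). The 4 Dynlt1 genes (Dynlt1a, Dynlt1b, Dynlt1c and Dynlt1f) are near-identical copies, with 67.7% to 93.7% of their 50-base words found in other genes, among them one another and Dynlt1-ps1, so their separate values of 14.2 to 73.7 FPKM are uncertain. Their differences lay between -0.10 and -0.08. The same holds for the mitotic copies Kifc1 and Kifc5b, with 47.6% and 42.1% of words shared. In this class 3 of 9 differences were positive, and 7 of 9 without control library 1 of both treatments.

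**Figure D5:**
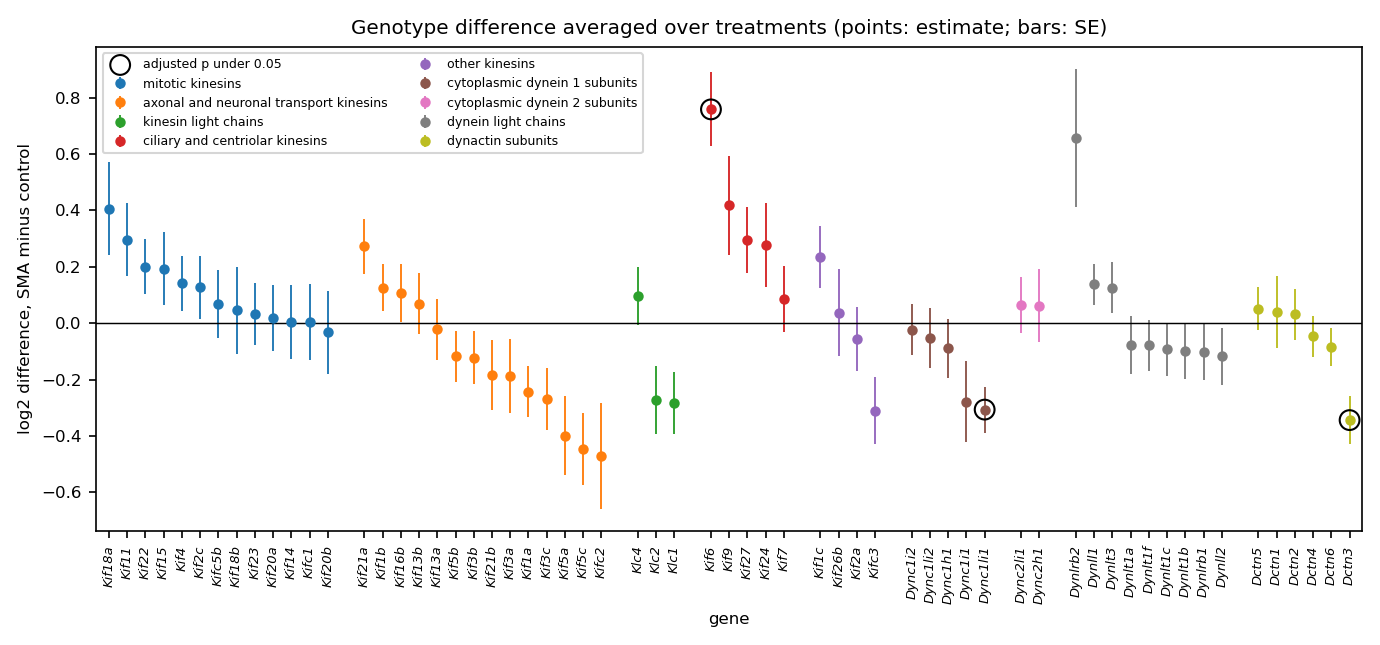
Difference between SMA and control averaged over treatments (y axis, log2(scaled FPKM + 1)) for each of the 61 tested motor genes (x axis), coloured by class and ordered within it, with bars of 1 SE and rings at adjusted p under 0.05. The rings mark Kif6 at 0.76, Dctn3 at -0.34 and Dync1li1 at -0.31.

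Separation of the libraries gave a similar count to the test. In both treatments at once, SMA libraries lay above control libraries for Kif6 (2.47% of all genes) and below them for Dctn3, Dync1li1 and Klc1 (2.86% of all genes). In untreated cultures 5 members were separate and higher in SMA (Kif6, Kif21a, Kif27, Dynlrb2 and Dctn5), against 7.78% of all genes, and 13 separate and lower, against 12.5% of all genes. The 13 were Kif1a, Kif3b, Kif3c, Kif5a, Kif5c, Kif21b, Kifc3, Klc1, Klc2, Dync1i1, Dync1li1, Dctn3 and Dctn6, of which 6 are transport kinesins. In treated cultures 2 members were separate and higher (Kif6 and Dynll1; 8.9% of all genes) and 5 separate and lower (Kif5b, Klc1, Dync1li1, Dctn3 and Dctn4; 8.87% of all genes).

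The treatment comparison asks which motors differ between cultures with and without R-Roscovitine. No motor gene was called by limma in control cultures, in SMA cultures or averaged over genotypes, and neither was any other gene (0% of 14982 in each). At an unadjusted p under 0.05 there were 0 members in control cultures (1.25% of all genes) and 0 averaged (1.64%). SMA cultures had 4 (6.56% of the 61, against 2.42% of all genes). With treated and untreated partners as a fixed block the calls stayed at 0, and 2, 9 and 10 members had an unadjusted p under 0.05 in control, SMA and averaged comparisons, with lowest adjusted p of 0.930, 0.616 and 0.798. The count over all genes rose as well with that block, to 541, 1099 and 898 of 14982 in the same order.

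Mitotic kinesins were lower with the compound in 12 of 13 members, with a median averaged difference of -0.11 against 0.00 for all genes. The number of positive members was 1 under each scaling and 0 to 3 when a pair of libraries was left out. Kif23 was lower in the treated library of all 6 pairs, by 0.01 to 0.40 on the log2 scale, with an averaged difference of -0.17 ± 0.11 (adjusted p = 1). Kif20a and Kif22 were also lower in all 6 pairs, at -0.21 ± 0.12 and -0.17 ± 0.10. Among all genes 1.99% were lower and 2.52% higher in 6 of 6 pairs, against 3 (4.92%) and 2 (3.28%) of the motor genes. Kif2c differed by -0.22 ± 0.11 and Kif4 by -0.20 ± 0.10, and each was lower in 5 of 6 pairs, control pair 2 being the exception.

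Separation of treated from untreated libraries among mitotic kinesins was seen in SMA cultures, and the difference from control cultures was not called. Treated SMA libraries lay below all untreated SMA libraries for 5 of 13 mitotic kinesins (Kif4, Kif11, Kif15, Kif18a and Kif20b) and for the ciliary Kif6, against 4.94% of all genes. Kif11 stood at 19.0, 19.6 and 19.0 FPKM without and 16.9, 16.4 and 17.6 FPKM with R-Roscovitine (-0.17 ± 0.18, adjusted p = 0.999). Kif4 stood at 14.7, 16.6 and 14.6 FPKM without and 10.9, 12.4 and 12.9 FPKM with the compound (-0.32 ± 0.14, adjusted p = 0.999). Of the 50-base words of Kif4, 16.2% are shared with other genes, among them Pdzd11 on the other strand. The median difference over the mitotic class was -0.17 in SMA and -0.08 in control cultures, and in control cultures 0 mitotic kinesins were separate in either direction. In the interaction 6 of 13 mitotic kinesins were positive, and 0 were called by limma. Of the 20 spindle and cytokinesis partners all 20 were negative with treatment averaged over genotypes (median -0.12) with 0 called, and the 10 dividing-cell markers were all negative as well (median -0.08). Their part in the mitotic kinesin differences was not tested.

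Transport kinesins leaned the other way. With treatment averaged over genotypes 10 of 14 were positive (median 0.06), and 51.7% of all genes were. Kif5a was higher in the treated library of all 6 pairs, by 0.01 to 0.44, with an averaged difference of 0.20 ± 0.14 (adjusted p = 1), and Dynlrb1 was the other member higher in 6 of 6 pairs (0.11 ± 0.10). Kif21b in SMA cultures stood at 14.1, 12.4 and 14.2 FPKM without and 17.8, 21.7 and 19.5 FPKM with R-Roscovitine, with no overlap. This difference, 0.50 ± 0.17, had the lowest p of any member in a treatment comparison (adjusted p = 0.999, and 0.616 with the pairs as a fixed block). In control cultures Kif21b was at 25.9, 14.8 and 17.8 FPKM without and 22.4, 16.0 and 19.3 FPKM with the compound (0.03 ± 0.17).

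Within SMA cultures the treated libraries lay above all untreated ones for 6 members, against 6.17% of all genes: Kif1a, Kif3c, Kif5c, Kif21b, Kifc2 and Dync1i1, of which 5 are transport kinesins. In control cultures Dctn5 was the member separate and higher (1.48% of all genes) and Klc4 the one separate and lower (3.04%). Kif5c was lower in the treated library of all 3 control pairs (by 0.01 to 0.14) and higher in that of all 3 SMA pairs (by 0.11 to 0.28). The interaction for Kif5c was 0.25 ± 0.26 (adjusted p = 1). All 12 neuron markers were positive with treatment averaged over genotypes (median 0.21, 0 called, 2 at an unadjusted p under 0.05), and in SMA cultures their sum was 757 to 884 FPKM without and 873 to 1107 FPKM with the compound. Their part in the transport kinesin differences was not tested. The untreated SMA libraries enter both this comparison and the untreated genotype comparison, so the 2 sets of differences are not independent.

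Ciliary Kif6 was the member with the second lowest p in SMA cultures, at -0.48 ± 0.19 (adjusted p = 0.999), with 2.29, 3.09 and 2.57 FPKM without and 1.55, 1.29 and 2.04 FPKM with R-Roscovitine. In control cultures it differed by -0.01 ± 0.19. Kif2a differed by 0.35 ± 0.16 in SMA cultures and by 0.24 ± 0.11 averaged (adjusted p = 0.999 and 1). In control cultures the lowest p belonged to Kif1c (-0.27 ± 0.16), Dctn5 (0.18 ± 0.11) and Kif2c (-0.26 ± 0.16), all with an adjusted p of 1.

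The interaction asks whether the compound acted differently in SMA and control cultures. No motor gene and no other gene was called by limma (0% of 14982), and 0 members had an unadjusted p under 0.05 (1.91% of all genes). The lowest p belonged to Kif21b (0.47 ± 0.25), Kif6 (-0.47 ± 0.26) and Kifc3 (0.36 ± 0.24), each with an adjusted p of 1. With the pairs as a fixed block Kif21b had an adjusted p of 0.813. In the interaction 37 of 61 motor genes were positive, against 51.5% of all genes.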

How the data were processed

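RNA-seq of 12 libraries (Lexogen mRNA kit, per the labels' protocols) was deposited as FPKM with 95% intervals. The authors made the FPKM values with Cufflinks 2.2.1 on GRCm38 after FastQC 0.10.1 and Trim Galore 0.4.0, per the submitters' processing notes. For the aligner and the strand of counting: not given in the sources used here. Depth, estimated from the step of 1 read in low values, was 19.5 to 28.7 in units of 1e6 fragments per library, and the median half-width of the deposited interval was 9.04% to 11.1% of the value.

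Entries sharing an identifier were summed, and small RNA genes were left out. FPKM was scaled by median-of-ratios factors and tested as log2(FPKM + 1) with limma 3.58.1 (R 4.3.3, trend, 4 group means, two-sided, Benjamini-Hochberg over 14982 genes at 1 FPKM or more in at least 3 libraries, threshold 0.05). The fit was tested on simulated data in which every library was drawn independently. That test could not show the effect of treated and untreated partners deviating together. Separate groups are ranges of deposited FPKM that do not overlap, and for averaged comparisons that do not overlap within both strata. Shared sequence is the share of 50-base words of a gene's longest coding transcript found in other genes.

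Named members are those called, the 20 of lowest p for genotype averaged over treatments, the 3 of lowest p elsewhere, and 15 fixed axonal, mitotic and dynein genes. Class extremes are named as levels. Members named because their groups were separate, or all pairs moved alike, were chosen after their values were seen. The members, lists, tests and motifs were chosen with earlier results of these data known.

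Treated and untreated libraries of one genotype and number deviated together (6 correlations of 0.24 to 0.60, against -0.41 to 0.07 for different numbers), so they were taken as pairs. Across genotypes, equal numbers gave -0.06 to 0.31 within and 0.05 to 0.32 between treatments (different numbers: -0.30 to 0.18 and -0.30 to 0.06). Not every pair exceeded 0.1, so the number was not taken as a pairing. Alternatives covered pseudocount, filter, scaling, trend, library weights, pair and number blocks, and leaving out libraries or pairs.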

Additional observations from a re-analysis of the deposited data

How the results depend on the processing

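Of the 3 motor genes called between SMA and control averaged over treatments, 0 were called with genes above 0 FPKM in 3 libraries, 5 with library weights (Kif21a and Kif5c added) and 8 with the number as a replicate block (these and Kif5a, Klc1 and Kifc2). Over all genes the 724 calls became 1, 2014 and 1772. With the pairs as a random block 0 were called, and with 1 mean per pair 0 (64 and 1 of all genes). Leaving out each library in turn gave 0 to 5, and each pair 0 to 4. In untreated cultures, where 0 were called, library weights gave 2 (Kif6 and Dctn3) and the number block 3 (Kif6, Kif5c and Kif5a). Over all genes these 2 settings called 455 (3.04%) and 331 (2.21%) in untreated cultures. The counts of the other comparisons stayed at 0 under every alternative run for them.

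In that comparison Kif6 kept its direction throughout, with differences of 0.29 to 1.25 over the settings that kept all libraries. Its adjusted p was 0.0511 without the 1 FPKM filter. Dctn3 had 0.0621 and Dync1li1 0.0698 there. Dync1li1 also missed the threshold with a pseudocount of 0.1 (0.0510) or 5 (0.0506), quantile normalization (0.0659) and no trend (0.0629).

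Signs turned for members near 0. Kif20a gave -0.010 as deposited, -0.056 with a common sum and -0.037 with library weights, -0.06 to 0.09 without 1 library, and -0.11 to 0.12 without 1 pair. Kif23 gave -0.043 with a common sum and -0.037 with weights, -0.04 to 0.08 without 1 library, and -0.10 to 0.11 without 1 pair. Dctn1 gave -0.036 with a common sum, -0.03 to 0.14 without 1 library, and -0.044 to 0.20 without 1 pair. Dync1h1 gave -0.15 to 0.033 without 1 pair. Groups of 3 libraries and low FPKM limit the precision for the ciliary kinesins, and the cause of each change was not tested.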
